A study of Mus musculus with 6 samples.

Results

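The heat shock chaperones described here were 71 of the 19938 mouse genes that the array named. They were taken by symbol: Hspa, Hspb, Hsp90, Dnaja, Dnajb and Dnajc genes, together with Hspd1, Hspe1, Hsph1, Bag3, Hsf1 and Hsf2, leaving out the endoplasmic reticulum genes Hspa5, Hsp90b1 and Dnajb9. Each gene was represented by the array row with the highest mean signal among the rows that named it alone. The table named 94 such rows, and 8 genes had more than 1. Of 74 genes in the RefSeq gene table that met the rule, 3 had no row of their own. Hsf1 and Hsp90ab1 were named by no row of the annotation used here, and Hspa1b was named only in a row that it shared with Hspa1a.

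The embryos were of the CD1 strain, an outbred stock, and were collected at embryonic day 5.0. Whole embryos were then kept for 8 hours at 37 °C in 5% CO2, either in narrow cavities of 90 µm or in wide cavities of 180 µm diameter. Each cavity had 3 samples of 30 pooled embryos, called narrow 1 to 3 and wide 1 to 3 below, and each sample was hybridized to 1 Affymetrix Mouse Gene 1.0 ST array. The series asked how embryos grown with and without mechanical cues from outside differ, and no uncultured embryo was among the samples used here.

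The products of these genes keep other proteins folded. Hsp70 proteins hold unfolded stretches in a cycle driven by ATP, J-domain proteins of the Dnaja, Dnajb and Dnajc families bring them their substrates, and Hsp110 proteins exchange their nucleotide. Hsp90 completes the folding of kinases and receptors, small heat shock proteins keep damaged proteins from aggregating, and the chaperonin of Hspd1 and Hspe1 folds proteins inside mitochondria. Under heat or other protein damage, heat shock factors bind repeated GAA units in the promoters of some of these genes and raise their transcription.

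The set was drawn by symbol as cytosolic and mitochondrial heat shock chaperones, and it is not purely that. By textbook knowledge, examples of members in the endoplasmic reticulum are Dnajb11, Dnajc1, Dnajc3, Dnajc10, Dnajc25 and Hspa13, and this list is not complete. Hspb11 is a protein of intraflagellar transport that carries the symbol of a small heat shock protein. The families held 9 Hsp70 genes, 3 Hsp110 genes (Hsph1, Hspa4 and Hspa4l), 1 Hsp90 gene, 8 Hspb genes, 2 genes for Hsp70 or Hsp27 binding partners, 2 chaperonin genes, 1 heat shock factor, Bag3, and 4 Dnaja, 12 Dnajb and 28 Dnajc genes. Of the 71, 47 had a mean signal above the median of all genes.

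The median log2 signal per array was 7.62 to 7.67. All 6 markers of the epiblast, all 6 of the extraembryonic ectoderm and all 8 of the visceral endoderm lay above the median signal of all genes. Of 5 markers of trophoblast giant cells and the ectoplacental cone, 3 were measured and 2 lay above the median, as did 4 of 4 for parietal endoderm, 3 of 6 for decidua and 1 of 5 for blood cells. Between cavities 0 of these markers passed the adjusted threshold of limma, and 3 had an unadjusted p under 0.05 (2 of the extraembryonic ectoderm and 1 of the visceral endoderm). Esrrb and Bmp4 of the extraembryonic ectoderm were lower in narrow cavities, by -0.22 (SE 0.04) and -0.21 (SE 0.08). Trf of the visceral endoderm was higher, by 0.18 (SE 0.05). Of all genes, 1.72% were lower and 1.68% higher at that level. The summed linear signal of the epiblast markers was 15493.1 to 17140.5 in the narrow and 15908.6 to 17456.1 in the wide samples, and that of the extraembryonic ectoderm markers was 17403 to 18541 and 18115 to 18878. For visceral endoderm it was 29533 to 30576 and 29660 to 30424. These sums thus overlapped between the groups in all 3 tissues, but some single markers did not. Esrrb and the epiblast marker Sox2 were lower in all narrow than in all wide samples. Trf and Tfap2c of the extraembryonic ectoderm were higher. Sox2 differed by -0.09 (SE 0.05) and Tfap2c by 0.09 (SE 0.05), so the extraembryonic ectoderm markers did not share a direction. The part of these markers in the differences below was not tested. In such pools fewer cells of a type and less RNA per cell cannot be told apart.

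The promoters of the members were searched for the element that heat shock factors bind. RefSeq promoter windows (GRCm38.p6, 250 bases before to 50 after a start) were found for 58 of the 71 genes, in 75 windows. The element was searched on both strands as 2 units in opposite orientation, GAANNTTC or TTCNNGAA, and as either with 1 more unit in the alternating direction, so every longer match also counts as a shorter one. The stretches below belong to members whose levels are given next, and capitals mark the matched bases. They are the 150 bases before the start of Hspa1a (chr17:34972157-34972306, minus strand) and 30 bases around the match of Hspb1 (chr5:135887801-135887830, plus strand), Hspe1 (chr1:55088053-55088082, plus strand), Dnajb6 (chr5:29735844-29735873, plus strand), Hsph1 (chr5:149636287-149636316, minus strand) and Dnaja1 (chr4:40722333-40722362, plus strand).
Hspa1a: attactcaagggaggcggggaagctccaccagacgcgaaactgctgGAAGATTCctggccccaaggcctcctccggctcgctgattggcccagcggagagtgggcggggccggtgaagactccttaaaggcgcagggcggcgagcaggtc
Hspb1: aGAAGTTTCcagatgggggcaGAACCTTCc
Hspe1: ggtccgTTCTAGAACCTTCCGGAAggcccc
Dnajb6: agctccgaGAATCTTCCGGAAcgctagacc
Hsph1: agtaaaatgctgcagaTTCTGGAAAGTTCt
Dnaja1: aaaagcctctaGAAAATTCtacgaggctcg

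The element of Hspa1a lay at positions -104 to -97 from its start. The 150 bases before the start of Hspa1b, its neighbour on the same chromosome, were identical at 149 positions (99.3%), which includes the element. The match in the Hspe1 window spanned 18 bases, at positions -89 to -72, and the head-to-head gene Hspd1 shares it. In Hsph1 the match lay 37 to 49 bases after the start. An element of at least 2 units was found in 16 of the 58 members (27.6%), against 17.0% of 27025 genes with a window. One of at least 3 units was found in 4 members, Dnajb6, Hspd1, Hspe1 and Hsph1 (6.9%), against 0.662% of all genes. These are matches of letters, and binding was not measured. No match in this window says only that the letters are not there.

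Between the cavities, none of the 71 heat shock genes passed the test, and the differences were small. With limma and Benjamini-Hochberg adjustment over all genes, 0 of the 71 and 0 of the 19938 (0%) had an adjusted p under 0.05. At an unadjusted p under 0.05, 1 member was higher in narrow cavities (1.41%, against 1.68% of all genes) and 0 were lower (against 1.72%). The median difference of the members, narrow minus wide, was 0.0086 on the log2 scale, beside 0.0011 for all genes. Above the median signal it was 0.0079 for the 47 members there and 0.0065 for all 9969 genes. The median level of the members varied between samples of the same cavity with an SD of 0.011, which is larger than 0.0086. The median size of a difference was 0.035 both for the members and for all genes. Differences were positive for 45 of the 71 and negative for 26, and over all genes they were positive for 10157 of 19938. Above the median signal they were positive for 30 of 47 members and for 5635 of 9969 genes.

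The width of the intervals shows what the fit without pairing of samples could and could not separate. A difference larger than 0.1, which is 1.07-fold, was seen in 4 members (5.63%) and in 9.82% of all genes. The 95% interval lay within 0.25 of 0 on either side, a change of 1.19-fold, for 67 of the 71 members (94.4%) and for 87.6% of all genes. The median SE was 0.049, against 0.053 for all genes. All 47 members above the median signal were among the 67. The other 4 were Dnajc5g, Hspb7, Dnaja4 and Dnajb6, each below the median signal. A p that missed the threshold does not show that a gene was equal in both cavities.

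**Figure D1:**
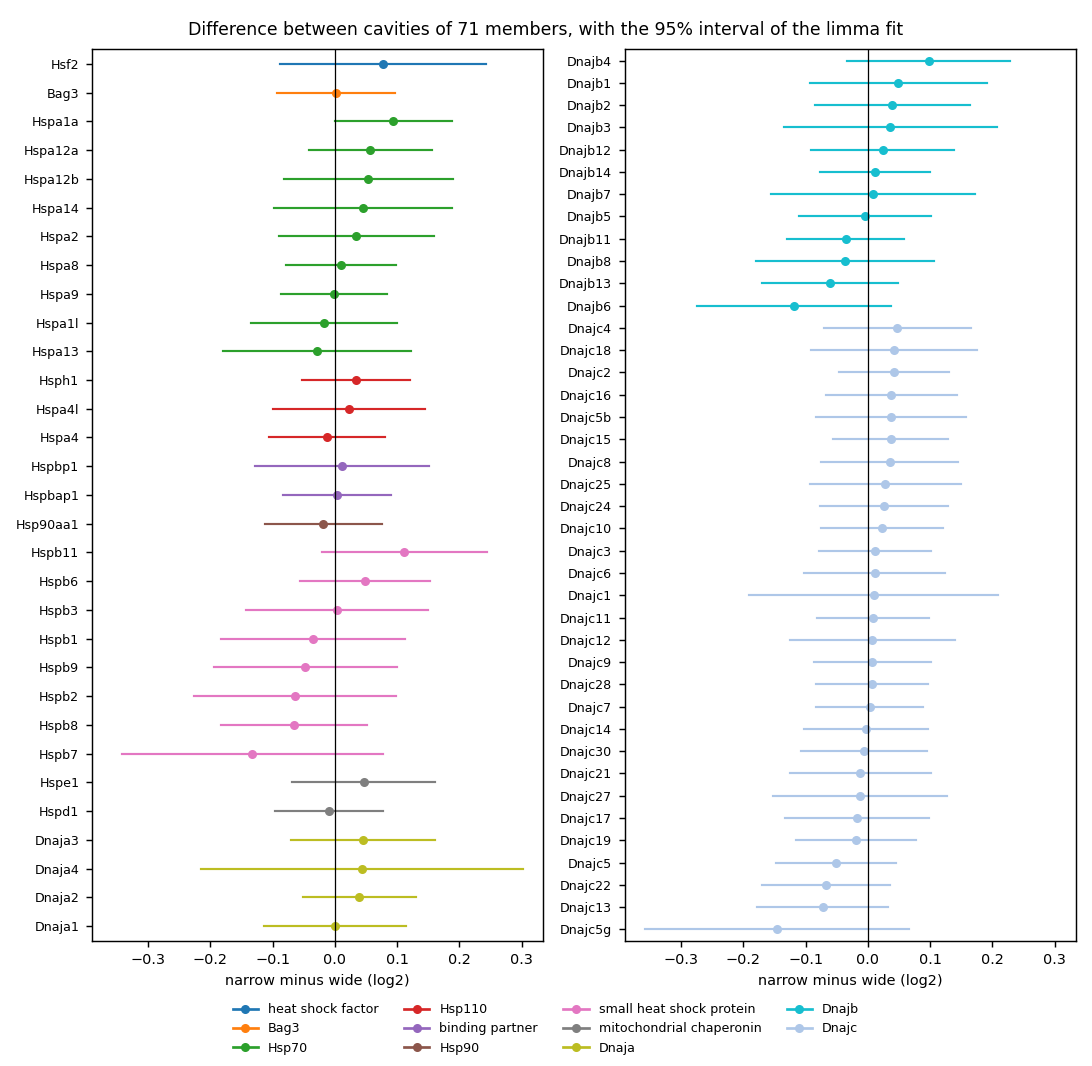
Difference between narrow and wide cavities (x axis, log2 units) for each of the 71 members, as the limma estimate (point) with its 95% interval (line), coloured by family. The points lie between -0.15 (Dnajc5g) and 0.11 (Hspb11), and the interval of 1 member, Hspa1a, ends just above 0.

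The member with an unadjusted p under 0.05 was Hspa1a, the strongly heat-inducible Hsp70 of the cytosol. Its log2 signal was 7.94, 7.95 and 8.00 in narrow 1 to 3 and 7.85, 7.86 and 7.90 in wide 1 to 3. The groups did not overlap, with narrow 1 and wide 3 closest to each other. The difference was 0.09 (SE 0.04, 95% interval 0.000136 to 0.188), a 1.07-fold change. The limma p was 0.0497 and 1.00 after adjustment, and an exact two-sided permutation test of the same samples gave p = 0.1, the smallest that 3 against 3 allow.

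The array row shared by Hspa1a and Hspa1b pointed the other way. It read 9.58, 9.69 and 9.81 in the narrow and 9.66, 9.82 and 9.75 in the wide samples. The groups overlapped, and the difference was -0.05 (SE 0.07). Hspa1a and Hspa1b encode nearly the same protein, so probes of either row could detect both transcripts. The rows thus gave no common direction for the inducible Hsp70 genes.

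The other Hsp70 genes lay closer to 0. Hspa8, the constitutive cytosolic Hsp70, read 13.60, 13.56 and 13.58 in the narrow and 13.57, 13.58 and 13.56 in the wide samples. The groups interleaved, and the difference was 0.01 (SE 0.04, 95% interval -0.08 to 0.10). Hspa9, the Hsp70 of mitochondria, read 12.96 in each narrow sample and 12.95, 12.97 and 12.97 in the wide ones, with an interval from -0.09 to 0.08. These values sit near the top of the deposited range, which ended at 14.31, and whether rows of such high signal respond in proportion to RNA was not tested.

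Hspa14, an Hsp70 bound to ribosomes, had a difference of 0.05 (SE 0.06), and the testis Hsp70 genes Hspa2 and Hspa1l had 0.03 (SE 0.05) and -0.02 (SE 0.05). Hspa13 of the endoplasmic reticulum stood at -0.03 (SE 0.07). The distant relatives Hspa12a and Hspa12b stood at 0.06 (SE 0.04) and 0.05 (SE 0.06). Thus 6 of the 9 Hsp70 genes were positive and 3 negative, with a median of 0.035 and no difference above 0.1 in size.

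Among the Hsp110 genes, the heat-inducible Hsph1 separated the groups by a very small step. It read 12.24, 12.26 and 12.25 in the narrow and 12.20, 12.22 and 12.23 in the wide samples. All narrow samples were above all wide samples, by 0.03 on average (SE 0.04, 95% interval -0.05 to 0.12). That step is smaller than its own error in the fit over all genes. Hspa4 had a difference of -0.01 (SE 0.04) and Hspa4l of 0.02 (SE 0.05), and their groups overlapped. Hspbp1, a nucleotide exchange factor of Hsp70, and Hspbap1, named for its binding to the small heat shock protein Hsp27, had differences of 0.01 (SE 0.06) and 0.00 (SE 0.04).

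Complete separation of the groups occurred in these genes at a share near that of the whole array. The narrow samples all exceeded the wide ones in 3 members (4.23%), Hspa1a, Hsph1 and Dnajc2, against 4.17% of all genes. All lay below in 2 members (2.82%), Dnajc5, a cysteine string protein of secretory vesicles, and Dnajc22, against 3.54% of all genes. Dnajc2, a J-domain protein bound to ribosomes, differed by 0.04 (SE 0.04), Dnajc5 by -0.05 (SE 0.04) and Dnajc22 by -0.07 (SE 0.05).

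Hsp90aa1, the stress-inducible cytosolic Hsp90, read 13.46, 13.38 and 13.42 in the narrow and 13.44, 13.44 and 13.43 in the wide samples. The narrow samples lay on both sides of the wide ones, and the difference was -0.02 (SE 0.04, 95% interval -0.11 to 0.08). Bag3, the co-chaperone that hands damaged proteins from Hsp70 to autophagy and is itself a target of heat shock factor, read 10.80, 10.75 and 10.74 in the narrow and 10.73, 10.77 and 10.79 in the wide samples. Its groups covered nearly the same range, and its interval ran from -0.09 to 0.10.

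Hsf2, a heat shock factor active in development, was the only factor of its class among the members. It read 10.59, 10.50 and 10.34 in the narrow and 10.49, 10.37 and 10.33 in the wide samples. In each same-numbered pair the narrow sample was higher, yet the spread within a cavity was wider than the step between cavities. The difference was 0.08 (SE 0.07, 95% interval -0.09 to 0.24). In a limma fit that pairs the samples by number, the SE was 0.04 and the unadjusted p was 0.099.

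**Figure D2:**
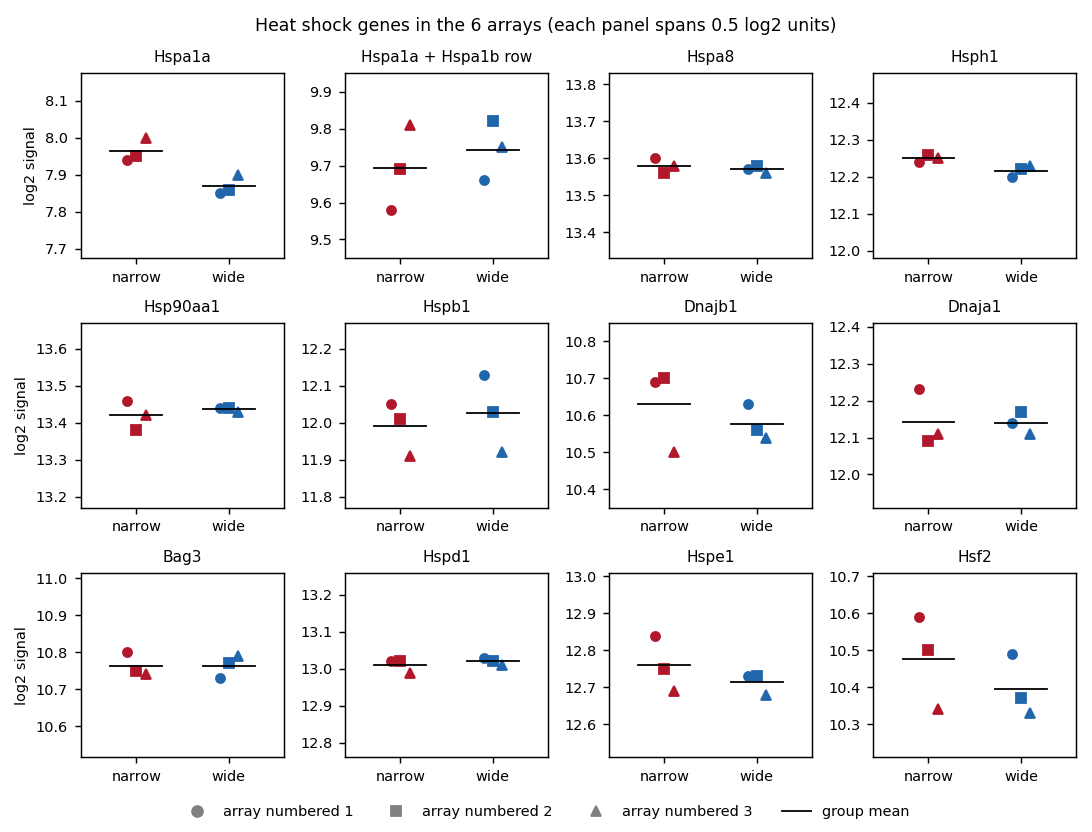
Log2 signal (y axis, 0.5 log2 units in every panel) of 11 heat shock genes and of the row shared by Hspa1a and Hspa1b in the 3 narrow and 3 wide samples, with the replicate number as the marker shape and a line at each group mean. Hspa1a separates the groups by 0.09 and the shared row does not, while Hsf2 and Hspb1 are spread more by replicate number than by cavity.

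Of the 8 Hspb genes, with Hspb11 counted by its symbol only, 5 had negative differences, the median was -0.041, and none passed. Hspb1, known as Hsp25 in the mouse, read 12.05, 12.01 and 11.91 in the narrow and 12.13, 12.03 and 11.92 in the wide samples. The narrow sample was the lower of each same-numbered pair, but the groups overlapped almost fully, and the difference was -0.04 (SE 0.06, 95% interval -0.18 to 0.11). Hspb8, which works with Bag3 in autophagy, had a difference of -0.07 (SE 0.05). The largest negative value was that of the muscle gene Hspb7 at -0.13 (SE 0.09).

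Hspb2, which muscle expresses together with Hspb3, stood at -0.06 (SE 0.07), Hspb3 at 0.00 (SE 0.06), the testis gene Hspb9 at -0.05 (SE 0.06) and Hspb6 at 0.05 (SE 0.05). The highest value of all 71 members was Hspb11 at 0.11 (SE 0.06, 95% interval -0.02 to 0.24). It read 7.44, 7.42 and 7.39 in the narrow and 7.32, 7.40 and 7.19 in the wide samples. Only narrow 3 and wide 2 crossed, and the limma p was 0.0887 before adjustment.

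The mitochondrial chaperonin genes Hspd1 and Hspe1 lie head to head and share a promoter, and both gave small values in the rows used for them. Their other rows are given below. Hspd1, the barrel subunit Hsp60, read 13.02, 13.02 and 12.99 in the narrow and 13.03, 13.02 and 13.01 in the wide samples. The groups overlapped, with a difference of -0.01 (SE 0.04). Hspe1, the lid subunit Hsp10, read 12.84, 12.75 and 12.69 in the narrow and 12.73, 12.73 and 12.68 in the wide samples. Narrow 1 was the high sample, and the difference was 0.05 (SE 0.05, 95% interval -0.07 to 0.16).

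The 44 J-domain genes had 29 positive and 15 negative differences and a median of 0.0090. Over all genes, 10157 of 19938 were positive and the median was 0.0011. Dnajb1, the heat-inducible partner of Hsp70 known as Hsp40, read 10.69, 10.70 and 10.50 in the narrow and 10.63, 10.56 and 10.54 in the wide samples. Narrow 3 was the lowest of the 6, and the difference was 0.05 (SE 0.06). Dnaja1 read 12.23, 12.09 and 12.11 in the narrow and 12.14, 12.17 and 12.11 in the wide samples. Narrow 1 was highest and narrow 2 lowest, and the interval of its difference ran from -0.11 to 0.11.

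Dnaja3, the J-domain protein of mitochondria, had a difference of 0.05 (SE 0.05). The J-domain genes with the smallest unadjusted p of positive sign were Dnajb4 at 0.10 (SE 0.06), Dnajc2 at 0.04 (SE 0.04) and Dnaja2, a cytosolic partner of Hspa8, at 0.04 (SE 0.04). Those of negative sign were Dnajb6, which keeps polyglutamine proteins soluble, at -0.12 (SE 0.07), Dnajc13, an endosomal protein, at -0.07 (SE 0.05) and Dnajc5g, a relative of the cysteine string protein, at -0.15 (SE 0.09). All 6 had an adjusted p of 1.00 by limma and all but Dnajc2 had overlapping groups. Over whole families, the 12 Dnajb genes ranged from -0.12 to 0.10 with 7 positive, the 28 Dnajc genes from -0.15 to 0.05 with 18 positive, and the 4 Dnaja genes from 0.00 to 0.05.

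Genes named by several rows have more than 1 reading in the same samples, though the rows need not detect the same transcript. Dnajc13 had 15 rows that named it alone, and all 15 had negative values, with differences from -0.092 to -0.00044 and a median of -0.036. The rows share the samples, so they are 1 observation of 6 samples and not 15, and 0 of them had a p under 0.05. The 3 rows of Hspa8 ran from 0.0025 to 0.041, the 3 of Hsp90aa1 from -0.019 to 0.0058 and the 2 of Hspb1 from -0.035 to -0.028. Both rows of Dnajc3, a J-domain protein of the endoplasmic reticulum, gave 0.012 and read nearly the same in every sample, so they add little to each other.

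Rows of other genes differed from each other. The other row of Hspd1 read 13.00, 12.99 and 12.91 in the narrow and 12.88, 12.90 and 12.89 in the wide samples. There all narrow samples were above all wide ones, by 0.08 (SE 0.04), while the row with the higher signal used for the gene had -0.01. The rows of Hspe1 gave 0.05 and 0.07. Its other row read 12.78, 12.73 and 12.70 in the narrow and 12.68, 12.67 and 12.65 in the wide samples, again without overlap (SE 0.04). The limma p of these other rows, in a fit over all array features, was 0.101 for Hspd1 and 0.122 for Hspe1. Those of Dnaja1 gave 0.00 and 0.07, and a row that it shares with the microRNA gene Mir207 gave -0.09. Dnajb6 had -0.12 in the low-signal row that names it alone, and the 4 rows with higher signal that it shares with the predicted gene Gm4247 lay between -0.019 and -0.0042. Hspa8, Hsp90aa1, Hspd1 and Hspe1 have processed pseudogenes in the mouse genome, and the annotation does not state which copies each row detects.

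**Figure D3:**
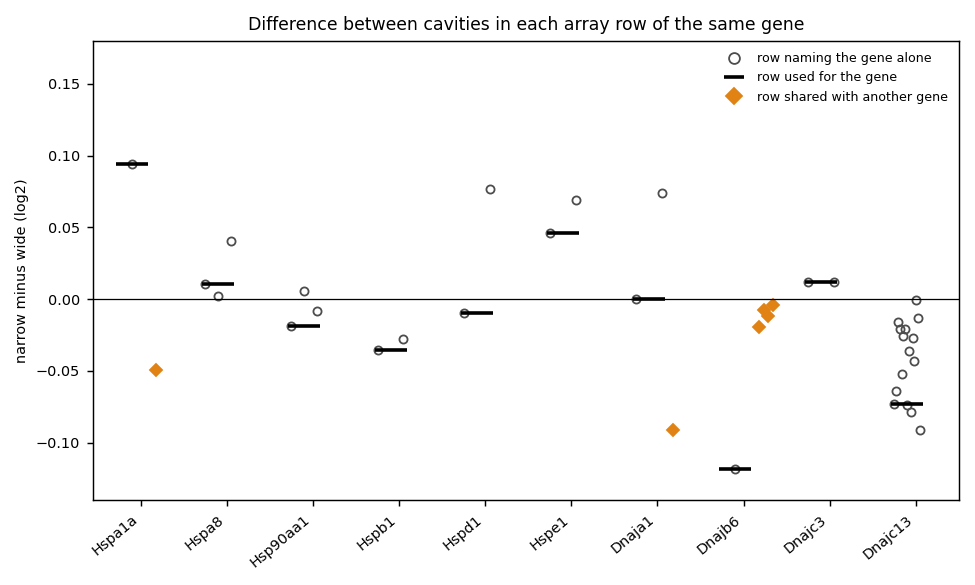
Difference between narrow and wide cavities (y axis, log2 units) in each array row of 10 heat shock genes, with circles for rows that name the gene alone, a bar at the row used for the gene and diamonds for rows shared with another gene. All 15 rows of Dnajc13 lie below 0, and the rows of Hspa1a, Hspd1 and Dnaja1 fall on both sides of it.

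The differences were also set beside the promoter matches shown above. The 16 members with at least 2 units had a median difference of 0.0023 and 10 were positive. The 42 members with a window and no match had a median of 0.011, and 29 were positive. They include the heat-inducible Dnajb1. No window was found for 13 members, among them Hsp90aa1, Hspa8 and Hspa9, with a median of -0.0015 and 6 positive. The groups thus do not divide the heat-inducible members from the others. The 4 members with 3 units were Hspe1 at 0.05, Hsph1 at 0.03, Hspd1 at -0.01 and Dnajb6 at -0.12, which is 2 of either sign in the rows used. The other row of Hspd1 gave 0.08, and the rows that Dnajb6 shares with Gm4247 lay between -0.019 and -0.0042. Hspd1 and Hspe1 share their match, so they are not separate cases.

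The wider folding machinery, of which 53 of 57 listed genes were measured, had similarly small differences. It includes the co-chaperones of Hsp70 and Hsp90, the cytosolic chaperonin TRiC, prefoldin, mitochondrial proteases and stress genes. By limma 0 of the 53 passed, 35 were positive and 18 negative, and the median was 0.016. Of the 53, 50 lay above the median signal. Over all genes above it, 5635 of 9969 were positive, with a median of 0.0065. The largest value was that of Hmox1, the haem oxygenase induced by oxidants and haem, which read 12.11, 12.00 and 11.91 in the narrow and 11.85, 11.70 and 11.70 in the wide samples. The groups did not overlap, and the difference was 0.25 (SE 0.07), with a limma adjusted p = 1.00. It was the only 1 of the 53 higher at an unadjusted p under 0.05 (1.68% of all genes), and its difference between the samples numbered 1 and the others was 0.16 (adjusted p = 0.129). In the limma fit that pairs the samples by number, the SE of its difference between cavities was 0.04 and the adjusted p was 0.630.

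Cdc37l1, a relative of the kinase co-chaperone Cdc37, was the only 1 lower at that level (1.72% of all genes), at -0.10 (SE 0.04). It read 9.33, 9.27 and 9.27 in the narrow and 9.38, 9.41 and 9.38 in the wide samples. The next smallest p values in each direction were those of Bag5 at 0.07 (SE 0.04), the mitochondrial exchange factor Grpel1 at 0.07 (SE 0.05), the lens heat shock factor Hsf4 at -0.09 (SE 0.05) and Ahsa2, a relative of the Hsp90 activator Ahsa1, at -0.07 (SE 0.07).

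The replicate number went with larger differences than the cavity did, in these genes as in the array as a whole. The samples numbered 1 stand apart from those numbered 2 and 3 on these arrays, and the labels do not say what the number means. That they stand apart was known from earlier results of these data, and the contrast was chosen for it. Its sizes and p-values, also beside those of the cavity, are thus a description and support no claim. With cavity in the model, number 1 was compared with the mean of 2 and 3. That difference was larger in size than the one between cavities in 50 of the 71 members (70.4%) and in 66.4% of all genes. Its median size was 0.042 for the members and 0.061 for all genes. None of the 71 passed adjustment, against 4 of all genes (0.0201%), and the smallest adjusted p of a member was 0.126. At an unadjusted p under 0.05, 6 members were higher in number 1 (8.45%, against 7.69% of all genes) and 7 were lower (9.86%, against 14.4%).

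The balance between higher and lower was as follows. Both samples numbered 1 lay above the other 4 in 13 members (18.3%, against 12.2% of all genes) and below them in 4 (5.63%, against 19.9%). The median was 0.0052 for the members and -0.024 for all genes. Over genes above the median signal it was 0.0034, and for the 47 members above it 0.019. The members have more high signals than the array as a whole. Above the median signal, both samples numbered 1 lay above the other 4 in 12 of 47 members and in 2055 of 9969 genes. They lay below them in 2 of these members and in 1779 of these genes. The part of signal in these shares was not tested. The sign was the same in both cavities for 45 of the 71 (63.4%), and over all genes for 69.1%.

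Of the genes with positive values in the samples numbered 1, Hsf2 and Hspb1 have been given above, and their number 1 sample was the highest of each cavity. Dnajc1, a J-domain protein of the endoplasmic reticulum, read 9.02, 8.83 and 8.68 in the narrow and 8.89, 8.87 and 8.74 in the wide samples. The difference by number was 0.18 (SE 0.05), against 0.01 between cavities. Hspa14 read 11.38, 11.27 and 11.19 in the narrow and 11.32, 11.21 and 11.17 in the wide samples. Both samples numbered 1 were above the other 4, by 0.14 (SE 0.04). The values by number were 0.16 (SE 0.04) for Hsf2, 0.13 (SE 0.04) for Hspb1 and for Hspa13, and 0.11 (SE 0.04) for Dnajb2, a neuronal J-domain protein.

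Among those with negative values in the samples numbered 1, the J-domain gene Dnaja4 read 7.28, 7.46 and 7.60 in the narrow and 7.28, 7.29 and 7.64 in the wide samples. The difference by number was -0.22 (SE 0.05), the largest in size of the 71 members, although wide 2 stood almost level with wide 1. Hspbp1 read 11.10, 11.27 and 11.28 in the narrow and 11.14, 11.20 and 11.26 in the wide samples. Both samples numbered 1 were below the other 4, by -0.13 (SE 0.04). Hspb7 stood at -0.20 (SE 0.06), Dnajb3 at -0.13 (SE 0.04), Hspa12b at -0.11 (SE 0.04), and Dnajb12 and Hspb9 at -0.10 (SE 0.04).

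The next members by p were Dnajc8, Dnajc18, Hspe1 and Dnajb1 with positive values of 0.09, 0.11, 0.07 and 0.08. Those with negative values were Dnajc13 at -0.08, Dnajc25 at -0.08 and Dnajb7 at -0.13. In the limma fit with a trend of variance on signal, 5 members passed by number (7.04%, against 8.54% of all genes), namely Hsf2, Hspa13, Hspa14, Hspb1 and Hspbp1. Among genes above the 50th percentile of signal 5 of 47 passed (10.6%, against 14.1% of those genes), with Dnajc1 in place of Hspa13.

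**Figure D4:**
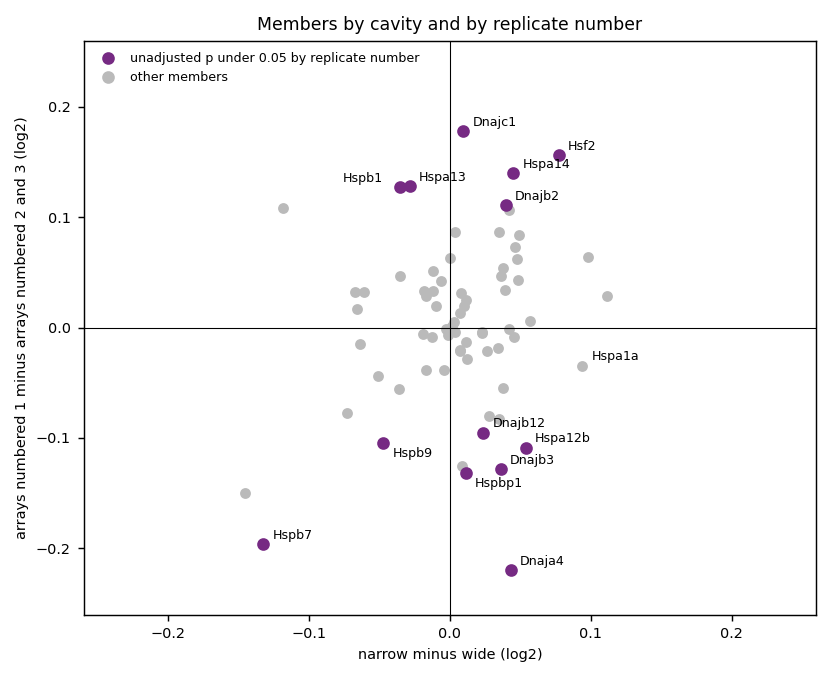
Difference by cavity (x axis, narrow minus wide, log2) against difference by replicate number (y axis, samples numbered 1 minus those numbered 2 and 3, log2) for the 71 members, with purple points for the 13 members at an unadjusted p under 0.05 by number. The points reach from -0.22 to 0.18 on the y axis and from -0.15 to 0.11 on the x axis, and Hspa1a is not among the purple ones.

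Because the replicate numbers were taken to pair the samples, the cavity test was repeated with the number as a block. By limma 0 of the 71 passed, and Hspa1a was again the only 1 with an unadjusted p under 0.05 (1.41%, against 3.54% of all genes higher in narrow), with adjusted p = 0.674. Leaving out narrow 2, narrow 3, wide 1, wide 2 or wide 3 took Hspa1a to a p above 0.05. Leaving out wide 1 gave Dnajc5g a difference of -0.26 and Hspb7 one of -0.23, leaving out wide 2 gave Dnajb6 one of -0.18 and Hspb11 one of 0.16, and leaving out narrow 2 gave Dnajb4 one of 0.16, each then at an unadjusted p under 0.05. The members at that level were 1 of 71 without narrow 1 (against 4.97% of all genes in the same fit), 1 without narrow 2 (3.93%), 0 without narrow 3 (3.18%), 2 without wide 1 (4.18%), 2 without wide 2 (2.49%) and 0 without wide 3 (3.16%). With all 6 samples none of Dnajc5g, Hspb7, Dnajb6, Hspb11 and Dnajb4 was at that level.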

How the data were processed

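The authors' deposited series table gives log2 signals, with 1 value for each feature of each array. That the scale is log2 was read from the range of 4.33 to 14.31. The background correction, normalization, software and build were not given in the sources used here. Array medians were nearly equal, so no further scaling was applied, and no filter on low signals was used. Features were named through the platform annotation: of 28853, 21789 named 1 gene, 1621 several and 5443 none. Symbols were checked against a RefSeq gene table through Entrez identifiers, of which 21698 matched and 0 symbols changed.

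Narrow and wide samples were compared for all 19938 genes with limma 3.58.1 in R 4.3.3 (lmFit and eBayes, two-sided, all 6 arrays, no covariate) and Benjamini-Hochberg adjustment at 0.05. Differences carry the SE and 95% interval of that fit. P-values of 3 pools a group set the difference between cavities against the spread between pools, which eBayes adjusts with the spread of all genes. Their precision is limited by the number of arrays. No background measure came with the values, so a low signal could not be told from an absent transcript.

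Members and gene lists were chosen with earlier results of these data known. Named genes were all Hsp70, Hsp110, Hsp90, Hspb, chaperonin and heat shock factor members and Bag3, the J-domain genes Dnaja1, Dnajb1 and Dnaja3, and the 3 J-domain genes and 3 co-chaperones with the smallest p in each direction, and for the replicate number up to 10 members in each direction. Genes given as separating the groups, or as passing an alternative, were named by that property.

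Deviations from the group means over all genes correlated at 0.516 between the samples numbered 1, 0.176 for those numbered 2 and 0.272 for those numbered 3. All exceeded 0.1, so same-numbered samples were treated as pairs in an alternative fit, although narrow 2 and wide 3 correlated at 0.178. The SEs, intervals and p-values given between cavities come from the fit without pairing unless stated otherwise. Alternatives were the replicate number as a block, other filters, rows, scalings and variance settings, and leaving out each sample.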

Additional observations from a re-analysis of the deposited data

How the results depend on the processing

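In 16 alternative analyses of the cavity comparison, 0 of the heat shock genes passed by limma in any, and the median difference of 0.0086 stayed positive. It was 0.0036 to 0.014 when each sample was left out, 0.018 when arrays were centred on their medians, and 0.0081 over the samples numbered 2 and 3 only. The number of members at an unadjusted p under 0.05, 1 with all samples, was 0 with a trend of variance on signal, 0 with robust variances, 0 among genes above the 50th percentile of signal, where Hspa1a is not tested, and 0 to 2 when a sample was left out. Hspa1a stayed positive at 0.0746 to 0.108, with a limma p from 0.0241 to 0.148 and under 0.05 in 7 of 15 alternatives.

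With the replicate number as a block, the pairing left 0 members past the adjusted threshold, 1 at an unadjusted p under 0.05 and the median at 0.0086, and it changed no call. By replicate number, 0 members passed as reported, 5 with a trend of variance and 5 among genes above the 50th percentile. The median difference by number was 0.025 within narrow and 0.0002 within wide cavities. Over the 36 named genes, 37 of 560 alternative values changed sign, in 16 genes, and none of those genes passed the adjusted threshold between cavities in any fit.

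The 3 samples per cavity limit these results. The median member's 95% interval reached 0.11 log2 units to each side of its difference. That width is not adjusted for the number of genes, so it is not the smallest change that the adjusted test could call. Over all genes the differences ran from -0.74 to 0.70, and none passed adjustment. Arrays of nearly equal medians do not show a change in total RNA per embryo, and Hsf1 and Hsp90ab1 were not measured by a row of their own.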

Other observations

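The array has 2 rows that name the small nucleolar RNAs Snord14c and Snord14d together with Hspa8, in whose introns such RNAs lie. Both had larger differences than any heat shock gene, at -0.65 (SE 0.32) and -0.67 (SE 0.31), against 0.01 for Hspa8 itself. The first read 10.28, 9.34 and 9.59 in the narrow and 11.01, 10.20 and 9.95 in the wide samples. The groups overlapped, wide 1 was the highest sample and the narrow sample was the lower of each same-numbered pair. The limma p values were 0.0759 and 0.0679 before adjustment, in a fit over all array features, and both adjusted p values were 1.00. The difference between the samples numbered 1 and the others was 0.87 in both rows. These rows were chosen after their values were seen.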
